A study of Mus musculus with 6 samples.

Results

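The genes described here are 32 genes of glycolysis and of the response to low oxygen: 16 glycolytic enzymes, 4 carriers of glucose and lactate, 3 kinases that regulate the pathway, and 9 genes of the hypoxia-inducible factor (HIF) pathway. They were found by symbol in a table of 23793 loci measured in mouse cerebellum at postnatal day 0, the day of birth, and each of the 32 matched 1 locus that carried no other symbol. The study compared 3 conditional knockout (cKO) libraries, Zeb2 f/f; hGFAP-cre, with 3 control libraries, Zeb2 f/+; hGFAP-cre. Zeb2 encodes a zinc finger transcription factor. All 6 libraries carried the Cre recombinase, which is driven by the human GFAP promoter and acts in neural progenitors and glia, and the controls carried 1 floxed allele, so no library was free of Cre or of a floxed allele. By its title, the study asked what Zeb2 does for Bergmann glia and for the organisation of the cerebellum. Values were FPKM, which are scaled for transcript length and library size. With a minimum of 1 FPKM in at least 3 of the 6 libraries, 13612 loci were tested, among them 31 of the 32 genes, and Car9 was the member left out.

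Glycolysis turns glucose into pyruvate in the cytosol. Hexokinase, phosphofructokinase and pyruvate kinase catalyse its largely irreversible steps, and lactate dehydrogenase converts pyruvate to lactate and back. Many steps have several isoenzymes, encoded by separate genes, that differ in kinetics and in the cells that use them. HIF is a transcription factor whose alpha subunit is hydroxylated and degraded when oxygen is available. When oxygen is low it accumulates and, with its partner Arnt, activates genes of glycolysis, angiogenesis and cell survival. In the newborn cerebellum, dividing granule neuron progenitors are known for aerobic glycolysis.

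The groups were first checked against their labels. Zeb2 (GRCm38 chromosome 2, 44983632 to 45117395, minus strand; at a locus shared with Mir5129) stood at 6.19, 3.89 and 5.81 FPKM in cKO 1 to 3, against 11.4, 9.52 and 7.995 FPKM in control 1 to 3. Each cKO value lay below each control value, but the locus did not pass (log2 fold change -0.77, SE 0.18, limma adjusted p = 0.107). Xist was at 142 to 147 FPKM in cKO and below 1 FPKM in the controls, and 4 Y-linked genes, Eif2s3y, Ddx3y, Kdm5d and Uty, went the other way, so in every comparison here genotype cannot be told apart from sex. Cerebellar markers were present in all 6 libraries, with Barhl1, a granule lineage gene, at 40.7 to 58.8 FPKM and Fabp7, a glial gene, at 1524 to 1624 FPKM. Gdf10, a gene of Bergmann glia, was at 74.9, 19.9 and 69.3 FPKM in cKO 1 to 3, against 124, 120.4 and 99.6 FPKM in control 1 to 3, lowest in cKO 2. The library cKO 3 stood apart from the other cKO libraries on the first principal component of all tested loci (0.064, against 0.52 and 0.53), and results are also given without it.

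None of the 31 genes tested passed the threshold of an adjusted p of 0.05 (limma, Benjamini-Hochberg over all loci), against 78 of 13612 loci, or 0.573%, over the whole table. Log2 fold changes of FPKM + 1, cKO minus control, ran from -0.46 (Hk2) to 0.29 (Slc2a1). Of the 31, 15 lay above 0 and 16 below, with a median of -0.0033, beside -0.0095 over all loci. The median size without regard to sign was 0.066, beside 0.088 over all loci. An unadjusted limma p under 0.05 was found for 6 of the 31 genes (19.4%), beside 17.6% of all loci, and these 6 were Ndrg1, Pfkfb3, Hk2, Pfkp, Hk1 and Slc2a1. All cKO values lay above all control values in 5 genes and below them in 3, together 25.8% of the 31, beside 23.9% of all loci (10.3% with cKO higher and 13.6% with cKO lower). These shares are near those of the table as a whole. In tissue RNA of this kind, fewer cells of a type and less RNA per cell cannot be told apart.

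**Figure D1:**
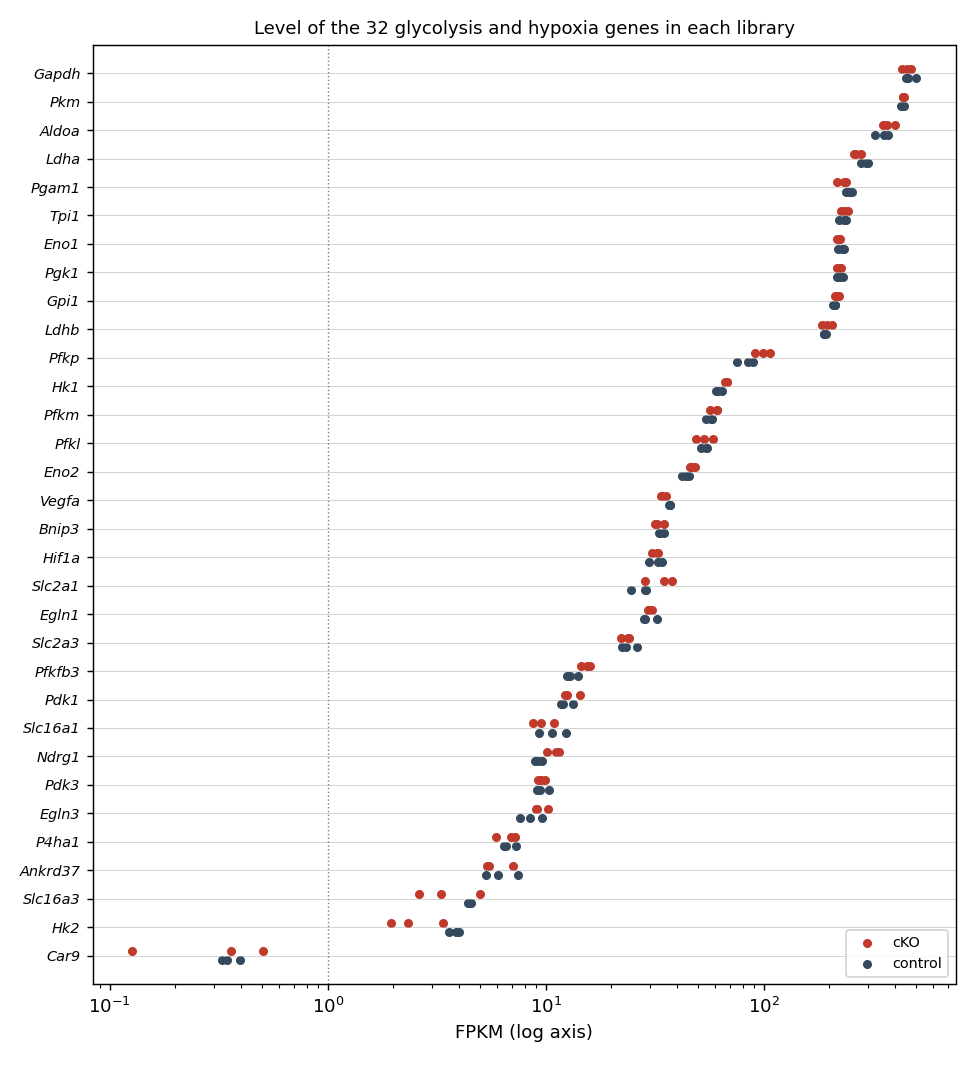
FPKM (log axis) of the 32 genes in each of the 3 cKO libraries (red, upper points of each row) and 3 control libraries (dark, lower points), ordered by mean level. Gapdh stands highest and Car9, left of the dotted line at 1 FPKM, lowest, and the points of both groups lie close together in most rows.

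Gapdh, which oxidises glyceraldehyde 3-phosphate, was highest with a mean over the 6 libraries of 461 FPKM, and Pkm, the pyruvate kinase gene, followed with 435 FPKM. Aldoa, Ldha, Pgam1, Tpi1, Eno1, Pgk1 and Gpi1 lay between 362 and 214 FPKM, so that 9 of the 16 enzymes exceeded every other member. From Pgam1 to Gpi1 the means ran only from 238 down to 214 FPKM. Ldhb averaged 193 FPKM, Pfkp 91.2, Hk1 64.6, Pfkm 57.99, Pfkl 53.5 and Eno2 45.5 FPKM. The HIF pathway genes, carriers and kinases ran from Vegfa at 35.7 FPKM to Ankrd37 at 6.14 FPKM, with Slc16a3 at 4.05 FPKM and Car9 below them. Hk2 was the lowest glycolytic enzyme at 3.18 FPKM. Car9, a carbonic anhydrase that is strongly induced by hypoxia in many tissues, was at 0.361, 0.127 and 0.506 FPKM in cKO 1 to 3, against 0.326, 0.346 and 0.397 FPKM in control 1 to 3, so the groups overlapped at a very low level.

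Most abundant enzymes among the 16 were at similar levels in both groups. Summed over the 16 enzymes, FPKM came to 3179.8 ± 44.5 in cKO and 3175 ± 82.7 in the controls (SD, n = 3 each). That sum leaves out Aldoc, an aldolase outside the 32 genes. With Aldoc, aldolase came to 563 ± 42.2 FPKM in cKO and 469 ± 33.5 FPKM in the controls. Hexokinase and phosphofructokinase came to 69.9 ± 1.49 and 212 ± 6.64 FPKM in cKO, against 65.7 ± 1.76 and 193 ± 8.37 FPKM in the controls. Enolase and lactate dehydrogenase came to 268 ± 3.95 and 463 ± 2.60 FPKM in cKO, against 271 ± 8.67 and 482 ± 8.54 FPKM in the controls. Pkm had 435.0, 436 and 439 FPKM in cKO 1 to 3, against 439, 431 and 427 FPKM in control 1 to 3, and the values of the groups interleaved. Its log2 fold change was 0.015, with a 95% interval from -0.12 to 0.15. Gapdh had 430.2, 456 and 476 FPKM in cKO 1 to 3, against 501, 447 and 459 FPKM in control 1 to 3 (log2 fold change -0.046, interval -0.23 to 0.13). Its sign changed with quantile normalization and without control 1. Gapdh, Pgk1, Eno1, Pgam1 and Ldha have near-identical processed pseudogenes, and the sources used here do not say how reads shared with such copies were counted, so these levels are uncertain.

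Gpi1, which converts glucose 6-phosphate to fructose 6-phosphate, averaged 217 ± 5.48 FPKM in cKO and 211 ± 3.38 FPKM in the controls. Tpi1, the triose phosphate isomerase, averaged 235 ± 9.28 and Eno1, an enolase, 221 ± 3.68 FPKM in cKO, against 231 ± 7.79 and 227 ± 7.24 FPKM in the controls. Aldoa, which splits fructose bisphosphate, averaged 373 ± 24.2 FPKM in cKO and 351 ± 23.7 FPKM in the controls. Pgk1, phosphoglycerate kinase, is 1 of 2 members on the X chromosome, with Pdk3. Pgk1 averaged 222 ± 5.27 FPKM in cKO and 223 ± 7.39 FPKM in the controls, a log2 fold change of -0.012 with an interval from -0.14 to 0.12. Its sign changed in 5 of 21 alternatives. These were median ratio scaling, quantile normalization, the larger processing set only, and the fits without cKO 1 and without control 1. Only Pgam1, phosphoglycerate mutase, had separate groups among these, with 234, 216 and 238.6 FPKM in cKO 1 to 3 and 253, 239.1 and 245 FPKM in control 1 to 3. The gap between its groups was under 1 FPKM, and it did not pass (log2 fold change -0.10, adjusted p = 0.453, and -0.056 without cKO 2).

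**Figure D2:**
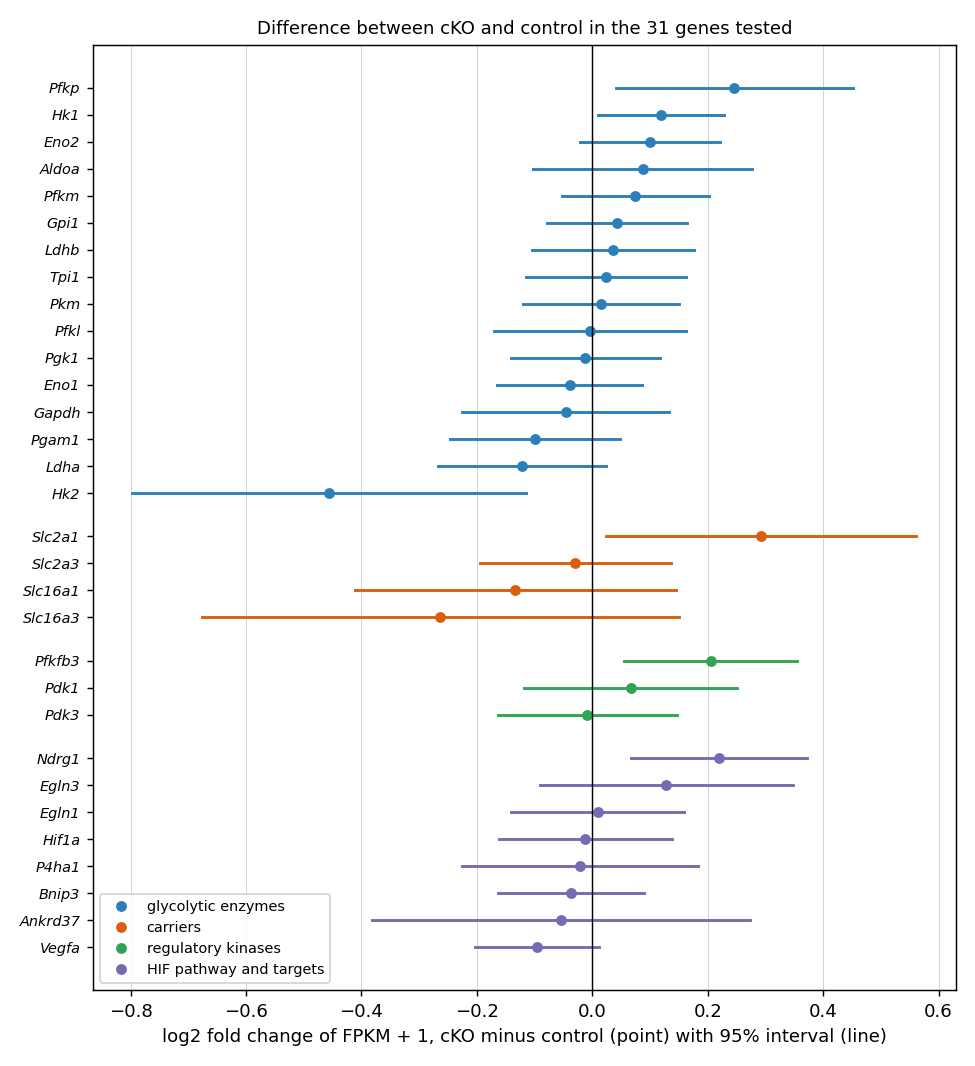
Log2 fold change of FPKM + 1, cKO minus control (points), with the 95% interval of the limma fit (lines) for the 31 genes tested, coloured by role. Intervals are narrow around 0 for most enzymes, and those of Hk2 and Slc16a3 reach farthest below 0 and that of Slc2a1 farthest above.

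The intervals show how large a difference each gene could have. For 22 of the 31 genes, 14 of them enzymes, the 95% interval of the fold change of FPKM + 1 lay inside 0.8 to 1.25. The 9 whose interval reached beyond were Hk2, Pfkp, Slc2a1, Slc16a1, Slc16a3, Pfkfb3, Egln3, Ankrd37 and Ndrg1. Only Hk2 and Slc16a3 reached beyond 1.5-fold in either direction. The intervals are those of single genes, not adjusted for their number, and they cover the spread between these libraries only. The pseudocount of 1 draws fold changes of low genes such as Hk2 towards 1.

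Hk2, an inducible hexokinase (GRCm38 chromosome 6, 82725025 to 82774454, minus strand), had the largest negative difference. It stood at 2.33, 3.37 and 1.95 FPKM in cKO 1 to 3, against 3.98, 3.86 and 3.59 FPKM in control 1 to 3. Every cKO library lay below every control library, with cKO 2 close to the controls. The means were 2.55 ± 0.733 FPKM in cKO and 3.81 ± 0.202 FPKM in the controls (log2 fold change -0.46, SE 0.14, limma adjusted p = 0.188). The log2 fold change was -0.33 (adjusted p = 0.259) without cKO 3 and -0.62 (adjusted p = 0.106) without cKO 2. In mouse granule neuron progenitors Hk2 is known as a target of Sonic hedgehog signalling. Of 10 markers of these progenitors and of the cell cycle, all 10 were below 0 and 4 fell, Ccnd1, Top2a, Cdc20 and Mcm4, with none at 0 in all libraries. The summed level of those markers was 246 to 260 FPKM in cKO and 335 to 366 FPKM in the controls, and its part in the Hk2 values was not tested.

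Hk1, the main hexokinase of brain (chromosome 10, 62268855 to 62379908, minus strand), lay the other way. It had 67.7, 67.9 and 66.4 FPKM in cKO 1 to 3, against 60.1, 61.7 and 64.0 FPKM in control 1 to 3. The groups did not overlap (log2 fold change 0.12, SE 0.046, limma adjusted p = 0.253). Without cKO 3 the log2 fold change of Hk1 was 0.13 (limma adjusted p = 0.293). Hk1 made up 96.4 ± 0.970% of the FPKM of Hk1 and Hk2 summed in cKO and 94.2 ± 0.458% in the controls (SD, n = 3 each). The log2 ratio of Hk2 to Hk1 was -4.36, -3.98 and -4.51 in cKO 1 to 3, against -3.62, -3.69 and -3.83 in control 1 to 3. The difference of -0.58 had an exact two-sided permutation p of 0.1, which is the lowest value possible for groups of 3, and 0.367 after Benjamini-Hochberg adjustment over the 11 pairs of isoenzymes compared. Its sign held in all 12 alternatives tried, at -0.73 to -0.42.

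**Figure D3:**
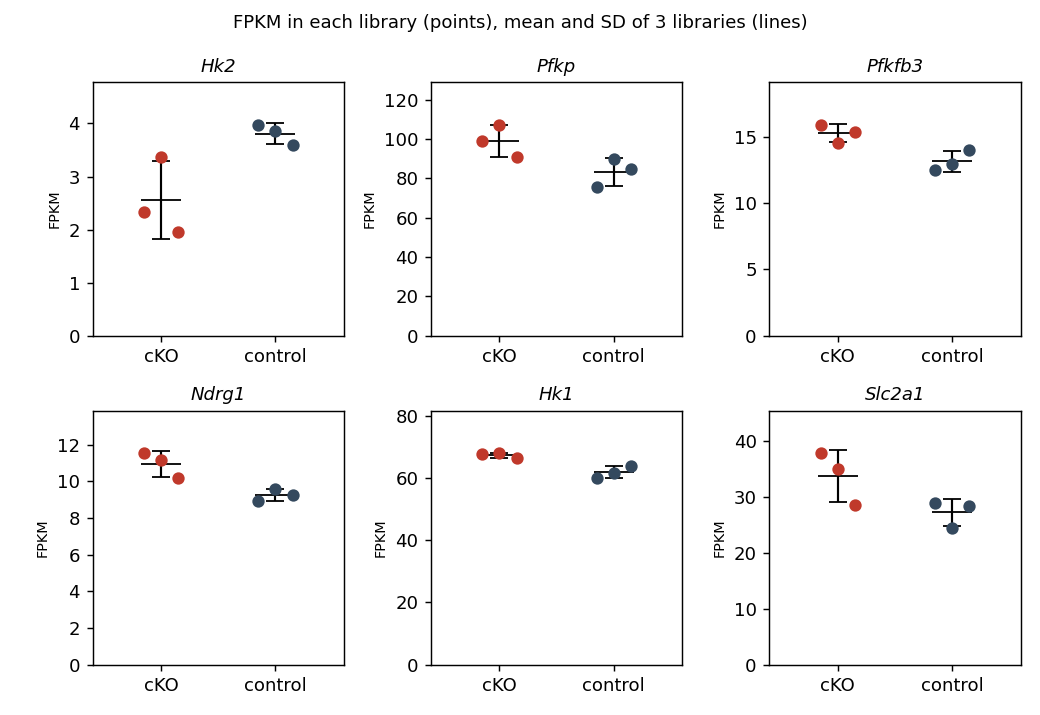
FPKM in each library (points) with mean and SD of 3 libraries (lines) for the 6 genes with the smallest unadjusted p, cKO left and control right in each panel. Groups do not overlap for Hk2, Pfkp, Pfkfb3, Ndrg1 and Hk1, and for Slc2a1 the lowest cKO value, 28.5 FPKM, lies within the controls.

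Phosphofructokinase, which commits sugar to glycolysis, is encoded by 3 genes. Pfkp, the platelet type that is abundant in brain (chromosome 13, 6579768 to 6648777, minus strand), had 99.0, 107 and 91.0 FPKM in cKO 1 to 3, against 75.6, 89.6 and 84.95 FPKM in control 1 to 3. All 3 cKO libraries were above all 3 controls, though cKO 3 exceeded control 2 by little (log2 fold change 0.25, SE 0.087, limma adjusted p = 0.223). Without cKO 3 the log2 fold change of Pfkp was 0.31 (limma adjusted p = 0.174). Pfkp passed (limma adjusted p = 0.0393) in 1 alternative that was added once the data had been seen, in which small-RNA loci were left out and the fit had a term for the processing set. The muscle type, Pfkm, averaged 59.5 ± 2.48 FPKM in cKO and 56.5 ± 2.11 FPKM in the controls, and the liver type, Pfkl, 53.5 ± 4.66 FPKM in cKO and 53.5 ± 1.49 FPKM in the controls. Pfkp made up 46.7 ± 2.47% of the family in cKO and 43.1 ± 1.98% in the controls, with overlap. The ratio of Pfkp to Pfkl differed by 0.25 on the log2 scale (exact permutation p = 0.3), and the difference shrank to 0.13 without cKO 2. That of Pfkp to Pfkm differed by 0.17 (exact permutation p = 0.2).

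Lactate dehydrogenase and enolase each have a partner pair with signs on both sides of 0. Ldha, the form that favours lactate production, had 280.3, 258 and 265 FPKM in cKO 1 to 3, against 300.5, 293 and 279.9 FPKM in control 1 to 3. The lowest control lay just under the highest cKO library (log2 fold change -0.12, interval -0.27 to 0.024). Ldhb, the form that favours use of lactate, had 185, 207 and 196 FPKM in cKO 1 to 3, against 189.5, 189 and 193 FPKM in control 1 to 3 (log2 fold change 0.036, interval -0.10 to 0.18), and its sign changed without cKO 2. Ldhb was 42.2 ± 2.36% of the family in cKO and 39.6 ± 1.12% in the controls. The log2 ratio to Ldha differed by 0.16 (exact permutation p = 0.2), and the difference shrank to 0.093 without cKO 2.

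Eno2, the neuronal enolase, had 45.9, 46.9 and 48.5 FPKM in cKO 1 to 3, against 44.1, 41.9 and 45.6 FPKM in control 1 to 3. The groups were apart by less than 1 FPKM (log2 fold change 0.10, limma adjusted p = 0.370). Without cKO 3 the log2 fold change of Eno2 was 0.079 (limma adjusted p = 0.521). The share of Eno2 in enolase was 17.6 ± 0.461% in cKO and 16.2 ± 0.392% in the controls. The log2 ratio of Eno2 to Eno1 was -2.26, -2.18 and -2.17 in cKO 1 to 3, against -2.38, -2.36 and -2.297 in control 1 to 3, again with no overlap. That difference was 0.14 (exact permutation p = 0.1, adjusted p = 0.367 over the pairs). The fold change of Eno1 alone turned positive with quantile normalization, at 0.0021. All 10 neuron markers were above 0 with none called, at 3002 to 3405 FPKM summed in cKO and 2913 to 3146 FPKM in the controls, and their part in the Eno2 values was not tested.

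Aldolase C was outside the 32 genes but belongs to a pair compared here. Aldoc, the aldolase of astrocytes and some Purkinje cells (chromosome 11, 78322968 to 78327781, plus strand), had 164, 208 and 199 FPKM in cKO 1 to 3, against 115, 106 and 135 FPKM in control 1 to 3. The log2 fold change of 0.68 (SE 0.12) had an adjusted p of 0.0723, and it passed in 3 of 22 alternatives, with a range from 0.0211 to 0.246. Without cKO 3 the log2 fold change was 0.64 (adjusted p = 0.123). Aldoc made up 33.7 ± 2.20% of aldolase FPKM in cKO and 25.2 ± 1.97% in the controls. The log2 ratio of Aldoc to Aldoa differed by 0.59, without overlap (exact permutation p = 0.1, adjusted p = 0.367 over the pairs). Both aldolases lay above 0, so their signs were not opposite. Of 12 markers of Bergmann glia and astrocytes, 9 were below 0, with Gpr37l1 and S100b lower and Slc4a4 higher past the threshold. The sum of the 12 was 1915 to 2085 FPKM in cKO and 2172 to 2243 FPKM in the controls. Fabp7 alone, at 1524 to 1624 FPKM over all libraries, made up most of that sum. The part of these markers in the Aldoc values was not tested.

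Of the 11 pairs, 7 had members with opposite signs, and 3 had ratios that did not overlap, those of hexokinase, aldolase and enolase. The 3 are 27.3% of the pairs, beside 23.9% of single loci whose groups do not overlap. A ratio of 2 genes is another measure than a single locus, and no share was computed over other gene pairs. The phosphofructokinase ratios also share genes. Hexokinase and enolase met both conditions. With 15 of the 31 genes above 0 and 16 below, opposite signs are common among pairs of these genes. Of the 7 pairs, only Hk2 and Hk1 kept both signs in every alternative they entered. In the other pairs, Pfkl, Pdk3, Slc2a3, Ldhb and Eno1 changed sign in 7, 6, 3, 1 and 1 alternatives. No pair could pass 0.05 in this exact test, whose smallest p is 0.1, and a p above the threshold does not show that 2 isoenzymes kept their ratio. The ratios of Pdk3 to Pdk1, Egln3 to Egln1 and Slc16a3 to Slc16a1 differed by -0.075, 0.12 and -0.13 on the log2 scale, with overlapping groups (exact permutation p = 0.4 each).

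**Figure D4:**
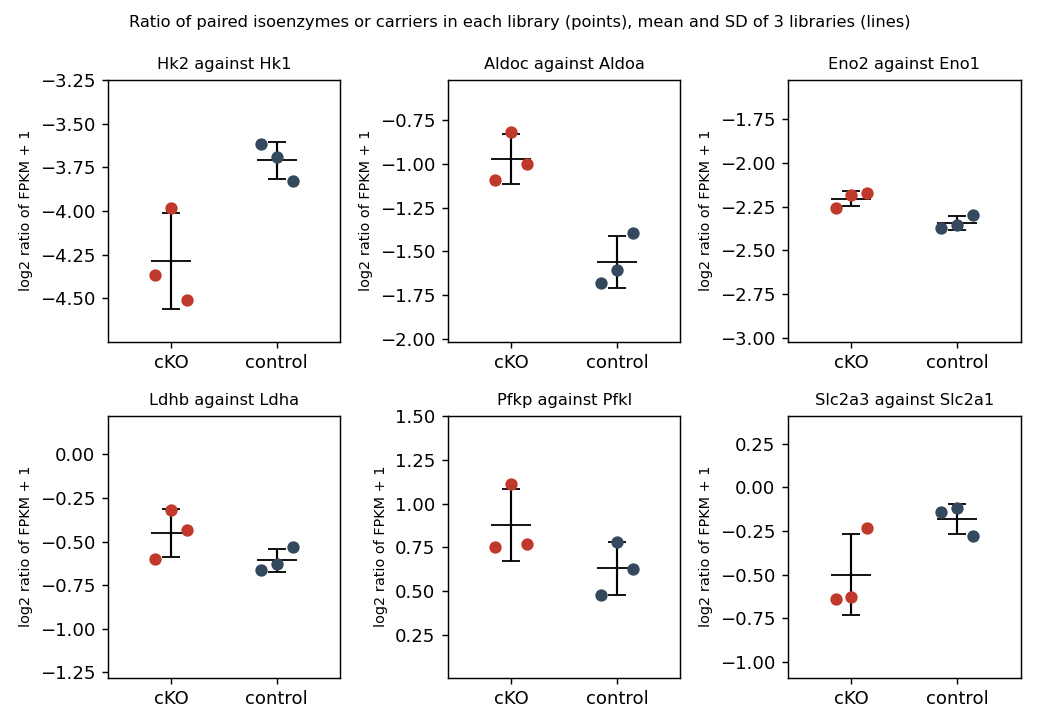
Log2 ratio of FPKM + 1 of paired isoenzymes or carriers in each library (points) with mean and SD of 3 libraries (lines), cKO left and control right. Every panel spans 1.5 log2 units, and the groups are apart for Hk2 against Hk1, Aldoc against Aldoa and Eno2 against Eno1.

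Among the carriers, Slc2a1, the glucose carrier GLUT1 of the blood-brain barrier and of glia (chromosome 4, 119108711 to 119137983, plus strand), had the largest positive difference of the 31 genes. It had 37.8, 34.9 and 28.5 FPKM in cKO 1 to 3, against 28.9, 24.5 and 28.4 FPKM in control 1 to 3. Only cKO 1 and cKO 2 were above every control (log2 fold change 0.29, SE 0.11, adjusted p = 0.255). Without cKO 3 the log2 fold change was 0.40 (adjusted p = 0.124), and in the larger of the 2 processing sets, which holds 2 libraries of each group, it was 0.45 (adjusted p = 0.207). In that set the other genes with a small unadjusted p kept their signs, with Hk2 at -0.31, Pfkp at 0.24, Pfkfb3 at 0.17, Ndrg1 at 0.24 and Hk1 at 0.11. Of 10 endothelial markers 9 were above 0 and none passed in the main fit, though 1 passed with small-RNA loci left out. Their sum was 119 to 121 FPKM in cKO and 89.4 to 109 FPKM in the controls, with no marker at 0 in all libraries. Mfsd2a alone averaged 27.9 ± 2.61 FPKM in cKO and 15.5 ± 3.77 FPKM in the controls, and only 2 of the 10 had groups that did not overlap. The part of these markers in the Slc2a1 values was not tested. Slc2a3, the neuronal glucose carrier GLUT3, averaged 23.4 ± 1.04 FPKM in cKO and 23.9 ± 1.94 FPKM in the controls. The ratio of Slc2a3 to Slc2a1 differed by -0.32 (exact permutation p = 0.2), and its value in cKO 3 lay among the controls.

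The lactate carriers were low and variable. Slc16a1, the carrier MCT1, averaged 9.72 ± 1.11 FPKM in cKO and 10.8 ± 1.57 FPKM in the controls. Slc16a3, the carrier MCT4 that exports lactate from glycolytic cells, had 5.02, 2.63 and 3.29 FPKM in cKO 1 to 3, against 4.53, 4.38 and 4.44 FPKM in control 1 to 3. The 3 controls were nearly equal, and the cKO libraries lay on both sides of them (log2 fold change -0.26, interval -0.68 to 0.15). The log2 fold change of Slc16a3 was -0.47 without cKO 1 and -0.10 without cKO 2.

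Pfkfb3 makes fructose 2,6-bisphosphate, the activator of phosphofructokinase (chromosome 2, 11471433 to 11554077, minus strand). It had 15.9, 14.6 and 15.4 FPKM in cKO 1 to 3, against 12.5, 13.0 and 14.0 FPKM in control 1 to 3, without overlap. The log2 fold change was 0.20 (SE 0.063, adjusted p = 0.182), and without cKO 3 it was also 0.20 (adjusted p = 0.252). Pdk1 and Pdk3 phosphorylate and inhibit pyruvate dehydrogenase, which limits entry of pyruvate into the citric acid cycle. Pdk1 averaged 13.0 ± 1.13 FPKM in cKO and 12.4 ± 0.804 FPKM in the controls. Pdk3, on the X chromosome, averaged 9.54 ± 0.367 FPKM in cKO and 9.61 ± 0.640 FPKM in the controls.

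Hif1a, the oxygen-regulated subunit, had 32.3, 30.8 and 32.7 FPKM in cKO 1 to 3, against 34.2, 32.8 and 29.7 FPKM in control 1 to 3 (log2 fold change -0.012, interval -0.16 to 0.14). Hif1a changed sign in 7 of 22 alternatives, among them either other scaling and the fit without cKO 2. Its activity is set mainly through protein stability, which RNA does not show. Egln1 and Egln3 encode prolyl hydroxylases that mark HIF for degradation, and both are HIF targets. Egln1 averaged 29.8 ± 0.663 FPKM in cKO and 29.7 ± 2.25 FPKM in the controls. Egln3 averaged 9.44 ± 0.698 FPKM in cKO and 8.57 ± 1.00 FPKM in the controls.

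Among the HIF targets, Ndrg1, a stress-responsive gene (chromosome 15, 66929318 to 66969640, minus strand), had the smallest p of the 31 genes tested. It had 11.5, 11.2 and 10.2 FPKM in cKO 1 to 3, against 8.92, 9.60 and 9.26 FPKM in control 1 to 3, without overlap (log2 fold change 0.22, SE 0.064, adjusted p = 0.168). Without cKO 3 its log2 fold change was 0.27 (adjusted p = 0.132). Vegfa, the endothelial growth factor (chromosome 17, 46016993 to 46032369, minus strand), lay on the other side, with 34.2, 33.6 and 35.8 FPKM in cKO 1 to 3, against 37.1, 37.0 and 36.9 FPKM in control 1 to 3. The controls were within 1 FPKM of each other and above every cKO library (log2 fold change -0.095, SE 0.045, adjusted p = 0.335, and -0.12 without cKO 3). Bnip3, a mitophagy receptor, averaged 32.9 ± 1.66 FPKM in cKO and 33.8 ± 0.847 FPKM in the controls. P4ha1, a collagen prolyl hydroxylase subunit, averaged 6.66 ± 0.687 FPKM in cKO and 6.76 ± 0.459 FPKM in the controls. Ankrd37, a gene of ankyrin repeats, averaged 6.00 ± 0.955 FPKM in cKO and 6.28 ± 1.11 FPKM in the controls.

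HIF binds a short core of hypoxia response elements, either ACGTG or GCGTG. RefSeq promoters (GRCm38.p6) were found for 30 of the 32 genes, and the 250 bases before each start were searched on both strands. ACGTG was found for 20 of the 30 genes (66.7%), beside 18.5% of 27025 genes with a promoter in the same table. A gene counted if the window before any of its starts matched. By window, ACGTG was in 53.5% of 43 windows of these genes, beside 16.6% of all windows. GCGTG was found for 19 of the 30 (63.3%), beside 30.9% of all genes. The genes were chosen for glycolysis and HIF, for which many are known targets, so their share is not independent of that choice. Of the genes with ACGTG, 19 were tested, 7 above 0 and 12 below, with a median log2 fold change of -0.012. The 10 without it had 7 above and 3 below and a median of 0.039. A match of 5 letters is not a binding site. The promoters of Hk2, Ldha and Ldhb are shown as examples from the hexokinase and lactate dehydrogenase families, whose members lie on both sides of 0. In other families, Pfkm, above 0, held ACGTG, while Pfkl and Pfkp did not, and neither Eno1 nor Eno2 held it. Pfkp was above 0 at 0.25. Slc2a1, with the highest log2 fold change of the 31 genes at 0.29, held ACGTG. Pfkl was at -0.0033, and its sign changed in 7 of 22 alternatives. Whether the letters bear on the fold changes was not tested. Capitals mark ACGTG on either strand, and the last base is the one before the start.
Hk2, chr6:82774455-82774704, minus strand: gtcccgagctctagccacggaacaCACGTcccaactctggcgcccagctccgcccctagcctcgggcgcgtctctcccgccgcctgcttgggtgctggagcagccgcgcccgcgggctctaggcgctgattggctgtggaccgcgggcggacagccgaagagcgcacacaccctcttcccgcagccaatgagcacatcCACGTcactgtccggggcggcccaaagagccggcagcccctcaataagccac
Ldha, chr7:46845554-46845803, plus strand: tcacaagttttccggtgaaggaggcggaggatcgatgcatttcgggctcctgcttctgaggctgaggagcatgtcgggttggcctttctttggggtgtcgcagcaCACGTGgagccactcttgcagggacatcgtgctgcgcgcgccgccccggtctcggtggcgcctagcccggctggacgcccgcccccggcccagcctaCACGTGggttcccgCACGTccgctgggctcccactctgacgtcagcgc
Ldhb, chr6:142507958-142508207, minus strand: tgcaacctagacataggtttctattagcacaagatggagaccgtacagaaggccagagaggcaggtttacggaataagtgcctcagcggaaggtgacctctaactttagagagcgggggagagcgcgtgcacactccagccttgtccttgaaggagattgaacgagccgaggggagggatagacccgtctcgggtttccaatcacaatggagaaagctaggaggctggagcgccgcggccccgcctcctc
In Hk2 the matches begin at -226 and -52 from the start. Ldha held 3 stretches, at -145, -48 and -34, of which the first 2 read the same on both strands and are thus also the E-box CACGTG. Ldhb held no ACGTG, and neither did the windows of Hk1. GCGTG had 1 match in Ldhb, 3 in 1 window of Hk1, and none in Hk2 or in the Ldha window shown. A second Ldha window, not shown, held 1 GCGTG and no ACGTG.

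None of 18 tested further enzymes of glycolysis and gluconeogenesis passed (median log2 fold change 0.010), with Aldoc having the smallest p. With small-RNA loci left out, Aldoc was the only gene of the 7 further lists that passed (adjusted p = 0.0233). Of 13 further carriers and partners none passed (median 0.018). Emb, a chaperone of lactate carriers, had 5.74, 5.58 and 4.88 FPKM in cKO 1 to 3, against 4.56, 4.21 and 4.44 FPKM in control 1 to 3 (adjusted p = 0.182), and Slc2a12, a further glucose carrier, 1.52 ± 0.314 FPKM in cKO and 1.01 ± 0.233 FPKM in the controls. None of 10 genes around pyruvate dehydrogenase passed, with Pcx, pyruvate carboxylase, at 37.4 ± 8.15 FPKM in cKO and 48.4 ± 3.09 FPKM in the controls, and Pdp2, a phosphatase of the complex, at 5.61 ± 0.616 FPKM in cKO and 4.92 ± 0.331 FPKM in the controls.

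The pentose phosphate pathway, which branches off glycolysis and supplies ribose, had 7 of 8 tested genes below 0 and none that passed. Rpe, ribulose phosphate epimerase, averaged 8.39 ± 1.41 FPKM in cKO and 10.9 ± 1.30 FPKM in the controls, and Tkt, transketolase, at a locus shared with Mir3076, 85.1 ± 7.71 FPKM in cKO and 95.8 ± 4.41 FPKM in the controls. Of 16 glycogen genes none passed, and 10 were above 0. Gbe1, the branching enzyme, averaged 7.24 ± 0.802 FPKM in cKO and 5.52 ± 0.575 FPKM in the controls, and Pgm2, a phosphoglucomutase, 41.8 ± 0.337 FPKM in cKO and 37.5 ± 0.886 FPKM in the controls. Of 15 regulators of HIF none passed (median 0.031). Epas1, the HIF-2 alpha subunit known from endothelium, had 8.49, 8.06 and 6.57 FPKM in cKO 1 to 3, against 6.20, 6.10 and 6.23 FPKM in control 1 to 3 (log2 fold change 0.27, SE 0.092, adjusted p = 0.211). Arnt, its partner, averaged 10.7 ± 0.463 FPKM in cKO and 11.5 ± 0.174 FPKM in the controls. Of 24 tested further HIF targets 13 were above 0 and 11 below (median 0.014), and none passed. Bhlhe40, a circadian repressor, averaged 6.37 ± 0.930 FPKM in cKO and 4.41 ± 0.416 FPKM in the controls (adjusted p = 0.125), and Ddit4, an inhibitor of mTORC1, 55.3 ± 8.04 FPKM in cKO and 42.3 ± 4.30 FPKM in the controls (adjusted p = 0.196).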

How the data were processed

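Total RNA of whole cerebellum was sequenced in 3 cKO and 3 control libraries, grouped by title. Whether libraries are from separate animals is not in the labels, and p-values then cover only the spread among these libraries, which may be technical. The submitters' processing notes name the build mm10 and the tools CASAVA, TopHat and Cufflinks. The deposited values were read as FPKM made by the authors, which no label states and which was inferred from Cufflinks and its locus names. The sources used here give no tool versions, annotation or strand setting, so antisense reads cannot be told apart. Read depth is unknown, which limits the precision of low values.

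Loci reaching 1 FPKM in 3 or more libraries were tested as log2(FPKM + 1) in limma 3.58.1 (R 4.3.3, trend, moderated two-sided test) and Benjamini-Hochberg adjustment over all 13612 loci. Intervals are 95% intervals of that fit, and group values are mean ± SD of FPKM. Isoenzyme ratios were tested with exact two-sided permutation (scipy 1.17.1). The fit was also run on simulated data with normal noise and without small-RNA loci. The main fit includes such loci, so the simulation does not cover it in full. Coordinates are those of GENCODE M21 (GRCm38). Members, lists and tests were chosen with earlier results of these data known. All 32 members are named, and from each further list the genes that passed and the 2 with the smallest p, with marker lists, Zeb2 and sex genes as checks. 1 gene of the further glycolysis list that this rule names is not reported here. Processing sets are libraries whose low values shared a step pattern: control 1 with cKO 3, and the other 4. Alternatives were a replicate block, deposit or processing set as a covariate, the first deposit or the larger set only, each library left out, 2 pseudocounts, 2 filters, 2 scalings, sample weights (statmod 1.5.0), robust variance, and small-RNA or X and Y loci left out. A test for counts was not run on FPKM.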

Additional observations from a re-analysis of the deposited data

How the results depend on the processing

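The count of 0 members called (limma) held in 21 alternatives. It became 1, Pfkp, in a setting added once the data had been seen, without small-RNA loci and with a term for the processing set. The number of loci called over the whole table, 78, was 22 with the deposit as a covariate, 30 in the larger processing set only, 28 without a filter, 30 at a mean of at least 5 FPKM, 336 with robust variance, 331 with small-RNA loci left out, 539 with that and the processing set as a covariate, and 21 to 55 with 1 library left out. The cause was not tested. With the replicate block it was 15. Samples share only a number: deviations of same-numbered libraries correlated at -0.027, 0.037 and 0.049, and not every library correlated best with its own number. The labels of cKO 1 carry 1 in the title, used here, and 3 in the description; with control 3 it correlated at -0.060. Of the 31 members, 18 kept their sign in every alternative they entered and 13 did not, among them Pfkl, Gapdh, Pgk1, Eno1, Ldhb, Hif1a and P4ha1, none of them called. At most 22 alternatives were fitted for a gene, of which 13 can move a fold change at all, and the filter at 5 FPKM removed Hk2 and Slc16a3. The median over members was 0.032 without control 1 and 0.025 with quantile normalization. The median of all loci moved by about 0.01 with scaling, from -0.0095 to 0.0019 and 0.0027. Depth is unknown, so values near 1 FPKM, and Car9, are the least certain.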

Other observations

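Values of 3 partners or subunits of pyruvate and lactate carriers, chosen after their values were seen, follow. Bsg, basigin, the partner that carries MCT1 and MCT4 to the cell surface, averaged 248 ± 5.16 FPKM in cKO and 246 ± 8.71 FPKM in the controls (log2 fold change 0.0077, 95% interval -0.12 to 0.14). Mpc1 and Mpc2, the subunits of the mitochondrial pyruvate carrier, averaged 97.0 ± 7.68 and 44.3 ± 1.82 FPKM in cKO, against 96.8 ± 10.6 and 43.8 ± 1.40 FPKM in the controls. Microglia and macrophage markers, cells known for high glycolysis when activated, summed to 51.9 to 55.5 FPKM in cKO and 37.4 to 38.7 FPKM in the controls. All 9 tested were above 0 and Csf1r rose (limma adjusted p = 0.0483), and their part in the values of the glycolytic genes was not tested. Of the other marker lists, meningeal fibroblast markers summed to 24.5 to 71.8 FPKM in cKO and 20.9 to 43.8 FPKM in the controls, with 7 of 8 above 0 and a median log2 fold change of 0.96, erythroid markers to 12.3 to 13.8 FPKM in cKO and 6.62 to 26.1 FPKM in the controls, and choroid plexus markers to 13.7 to 36.3 FPKM in cKO and 19.0 to 27.2 FPKM in the controls. Of these 3 lists, the 1 locus called was Hba-a1, shared with Hba-a2, which was listed at 0 in all 3 controls.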
